A study of Drosophila melanogaster with 8 samples.

Results

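Heads of wild-type Drosophila melanogaster collected early in the night, at ZT14, were compared with heads collected in the morning, at ZT2, in 2 libraries of each, 4 of the 8 libraries of the series. Zeitgeber time (ZT) counts the hours since lights-on. The wild-type flies were of the strain w1118, a white-eyed laboratory stock, and lived in cycles of 12 h light and 12 h dark at 25 °C. They were entrained for 3 days and collected on day 4. The other 4 libraries came from heads of the mutant strain vriΔ679 (written vri679 here), 2 at ZT14 and 2 at ZT2, kept in the same cycle. Those libraries entered the estimate of the spread, and their time differences stand beside the wild-type ones at the end. The labels give neither the age nor the sex of the flies, nor the number of heads in a sample. Nothing states that the 2 libraries of a group came from separate cultures, so the p-values rest on the spread between these libraries, which may be technical. Libraries were sequenced 4 to a run, and the sample labels used here do not give the run of each. The part of the run in any result was not tested.

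The fly clock is a pair of interlocked transcription loops. The proteins CLOCK (CLK) and CYCLE (CYC) switch on period (per) and timeless (tim) late in the day, and the PER and TIM proteins later enter the nucleus and shut CLK and CYC down. In the second loop CLK and CYC switch on vrille (vri), whose protein represses Clk, and Pdp1, whose protein activates it. In the head this machinery runs in clock neurons, in photoreceptors, in glia and in the fat body that lies around the brain, and it times the transcription of many other genes.

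Levels are given as FPKM, fragments per kilobase of transcript, scaled to the mapped reads of the library, summed over the transcripts of a gene and rescaled between libraries. Wild-type ZT14 libraries held 65.4 and 58.4 M mapped reads and wild-type ZT2 libraries 62.6 and 53.5 M. Genes at 1 FPKM or more numbered 9631 to 9893 per library. Replicates differed by a median of 0.108 on the log2 scale at wild-type ZT14 and 0.102 at wild-type ZT2, but by 0.317 in vri679 ZT14, the group that stands apart. None of 11 female germline genes reached the minimum level for testing. The yolk protein transcript Yp1, made in females, was at 2850 and 1263 FPKM at ZT14 and at 5599 and 3406 at ZT2, and the male-biased RNA roX1 at 27.9 and 35.9 at ZT14 and 16.7 and 52.2 at ZT2. The part of sex composition in any result was not tested. In whole heads, fewer cells of a type and less RNA per cell cannot be told apart.

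A gene was called when limma, fitted to log2(FPKM + 0.5) in all 8 libraries, gave an adjusted p (Benjamini-Hochberg over 10122 genes tested) under 0.05. The difference in the text is ZT14 minus ZT2 on that scale, with its standard error (SE), and it understates the change of genes near 0.5 FPKM. In wild-type heads 671 genes, 6.63% of those tested, were called. Of these, 396 (3.91%) were higher at ZT14 and 275 (2.72%) were lower at ZT14. In each of the 671 genes the ZT14 libraries and the ZT2 libraries did not overlap, but that held in the same way for 32.1% (ZT14 higher) and 30.9% (ZT14 lower) of all genes tested. At an unadjusted p under 0.05 there were 2025 genes.

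The median difference was 1.05 for the genes called higher at ZT14 and -1.075 for those called lower. The median size of the difference over all genes tested was 0.169, a contrast that the selection of called genes itself produces. Differences over 1 log2 unit were found for 214 genes called higher and 154 called lower, and those over 2 log2 units for 52 and 33. Together the genes called higher held 9.91% of all FPKM at ZT14 and 3.86% at ZT2, and the genes called lower held 1.38% at ZT14 and 3.0% at ZT2. Non-coding genes made up 27 of the calls among 550 tested (4.91%). The calls were spread over the large chromosome arms, at 5.35% (X) to 7.85% (3L) of the genes tested.

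The number of calls depended on the spread that was used. With the 4 wild-type libraries alone 795 genes were higher at ZT14 and 772 lower, 15.5% of those tested, and without the vri679 ZT14 group 767 were higher and 666 lower. Leaving out 1 wild-type library left 102 to 195 genes higher and 45 to 102 lower, because its group then had 1 library. In all, 122 calls, 82 higher and 40 lower at ZT14, held whichever of the 8 libraries was left out. They are called robust in what follows. No called gene changed direction in these fits, but that was fixed in advance, since the wild-type ZT14 and ZT2 libraries of each did not overlap.

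**Figure D1:**
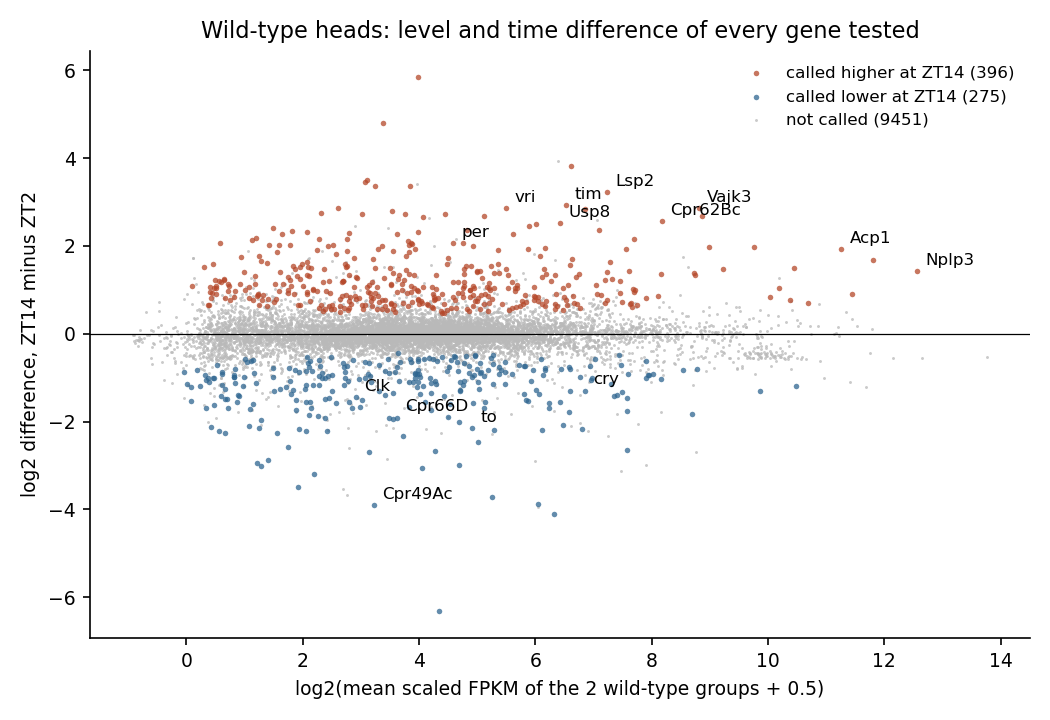
Each point is 1 of the 10122 genes tested, with its mean level in the wild-type libraries (log2 FPKM) on the horizontal axis and its log2 difference, ZT14 minus ZT2, on the vertical axis. The 396 genes called higher at ZT14 and the 275 called lower lie at every level, from genes near 1 FPKM to the very abundant Nplp3 and Acp1.

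The core clock genes stood at opposite levels at the ZT14 and ZT2 time points, and 5 of them were robust calls. tim (2L 3493986–3508119), whose protein is the light-sensitive partner of PER, was at 184 and 142 FPKM at ZT14, against 19.9 and 22.0 at ZT2 (difference 2.93, SE 0.18, adjusted p = 0.000446). vri (2L 5288944–5311223) was at 85.9 and 72.6 FPKM at ZT14 and at 10.1 and 10.7 at ZT2 (2.87, SE 0.27, adjusted p = 0.00226). per (X 2685580–2692780) was at 44.7 and 32.1 FPKM at ZT14 and at 7.73 and 9.67 at ZT2 (2.07, SE 0.20, adjusted p = 0.00262). In each of these 3 genes both night libraries lay more than 3 times above both morning libraries.

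The repressor clockwork orange (cwo, 3R 10388258–10400752), a transcription factor that acts on the same E-boxes as CLK and CYC, was also higher in the night. It was at 24.4 and 19.96 FPKM at ZT14 and at 10.4 and 10.03 at ZT2 (1.07, SE 0.21, adjusted p = 0.0309), a call that was lost when any 1 library of wild type or of vri679 ZT2 was left out and with libraries rescaled to equal totals. Pdp1 (3L 7811458–7867369) was at 200 and 202 FPKM at ZT14 and 133 and 122 at ZT2, which did not pass (0.65, SE 0.20, adjusted p = 0.123) although the libraries did not overlap. That level sums all Pdp1 transcripts, which were not examined singly. The wild-type libraries alone put all 5 of these evening genes past the threshold.

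Clk and cry ran the other way. Clk (3L 7763233–7775603) was at 3.58 and 3.54 FPKM at ZT14 and at 10.8 and 10.3 at ZT2 (-1.44, SE 0.15, adjusted p = 0.00375). cry (3R 19212154–19215442), which encodes the blue-light receptor cryptochrome, was at 68.7 and 64.5 FPKM at ZT14 and at 168 and 160 at ZT2 (-1.30, SE 0.14, adjusted p = 0.00361). cyc, whose mRNA is known not to cycle in heads, was at 20.4 and 18.5 FPKM at ZT14 and at 20.3 and 20.9 at ZT2 (-0.09, SE 0.11, adjusted p = 0.781).

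Among 21 further genes of the clock list, mostly kinases, phosphatases and ubiquitin ligases that act on PER, TIM or CLK protein, limma called 1 (4.76%, near the background of 6.63%). That gene was Ubpy (current symbol Usp8, 3R 21134262–21138214), a deubiquitinase known to act on CLK. It was at 153 and 139 FPKM at ZT14, against 23.5 and 26.5 at ZT2 (2.52, SE 0.16, adjusted p = 0.000538), a robust call. Both ZT14 libraries lay far above both ZT2 libraries.

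**Figure D2:**
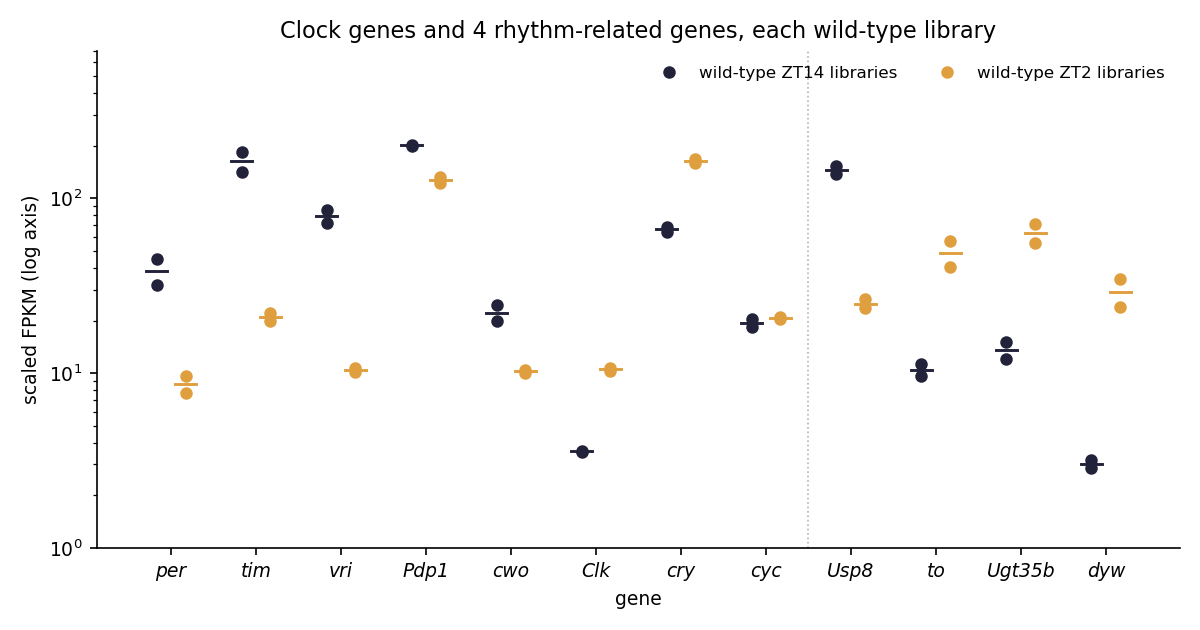
Points are the scaled FPKM (log axis) of single wild-type libraries, ZT14 to the left and ZT2 to the right of each gene, and bars are the means of 2 libraries. per, tim, vri, cwo and Usp8 are higher at ZT14, Clk, cry, takeout (to), Ugt35b and daywake (dyw) are lower, and the cyc libraries overlap.

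Some genes known to be rhythmic in fly heads downstream of the clock also differed between night and morning. takeout (to, 3R 25240180–25241668), a clock-controlled secreted protein linked to feeding, was at 9.61 and 11.2 FPKM at ZT14 and at 56.9 and 40.4 at ZT2 (-2.15, SE 0.25, adjusted p = 0.00497). Ugt35b, a UDP-glycosyltransferase, was at 12.1 and 15.1 FPKM at ZT14 and at 71.6 and 55.8 at ZT2 (-2.18, SE 0.22, adjusted p = 0.00298). Both were robust. Of 14 genes in this list 3 were called higher and 2 lower (35.7%, against 6.63% of all genes tested). The others were Ubpy, dysc, a scaffold protein needed for rhythmic behaviour (34.3 and 34.5 FPKM at ZT14, 18.9 and 16.7 at ZT2), and the Pdf receptor gene Pdfr (38.7 and 45.4 FPKM at ZT14, 26.5 and 25.6 at ZT2). The calls of dysc and Pdfr were lost without any 1 wild-type library.

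CG2650 (daywake, dyw, X 2692732–2693886) lies tail to tail with per and overlaps its last exon on the other strand. It was at 2.86 and 3.20 FPKM at ZT14, against 24.0 and 34.6 at ZT2 (-3.06, SE 0.49, adjusted p = 0.0184), opposite to per. The library kit keeps the strand, but the sources used here do not say whether it was used in counting, so the share of reads assigned to either gene in the overlap is uncertain. The call was lost without any 1 wild-type library and with replicate numbers as a block.

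Jhe, the esterase that breaks down juvenile hormone, fell to 1.11 and 1.62 FPKM at ZT14, against 7.45 and 5.06 at ZT2 (-1.85, SE 0.21, adjusted p = 0.00436). Inos, which encodes inositol-3-phosphate synthase, rose to 620 and 612 FPKM at ZT14, against 233 and 236 at ZT2 (1.39, SE 0.13, adjusted p = 0.00226). The replicates of Inos differed little beside the time difference. The transcription factor glass (gl), required to make photoreceptors, was at 36.1 and 30.1 FPKM at ZT14 and at 10.2 and 11.02 at ZT2 (1.59, SE 0.17, adjusted p = 0.00396). fondue (fon), which encodes a clotting protein of the hemolymph, was at 45.3 and 40.2 FPKM at ZT14 and at 160 and 135 at ZT2 (-1.77, SE 0.19, adjusted p = 0.00393). These 4 calls were robust.

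Beyond the clock genes, many calls fell on genes of the cuticle, the chitin and protein coat that covers the head. The labels give no age, and the part of fly age or collection in any result was not tested. Of 123 genes in the list of cuticle proteins 51 passed the filter on low values, and 19 were called higher and 4 lower at ZT14 (45.1%, against 6.63% of all genes tested), with a median difference of 0.57 against 0.002 over all genes tested. A gene could pass the filter through a high level at ZT14 alone, and the median was 0.16 over the 101 members kept with no filter on low values (15 higher, 5 lower) and 0.99 over the 36 kept at a minimum of 5 FPKM (17 higher, 4 lower). Of the calls among the 51 genes, 9 of the 19 and 2 of the 4 were robust. Summed over the list, FPKM was 6344 and 7440 at ZT14 and 2997 and 2659 at ZT2. Acp1, a cuticle protein of adult flies, led this sum with 3608 and 4142 FPKM at ZT14 and 1112 and 930 at ZT2 (1.93, SE 0.27, adjusted p = 0.00981, lost without any 1 wild-type library).

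Several structural proteins of the chitin-binding CPR family differed by more than 2 log2 units. Cpr62Bc (3L 1840281–1842084) was at 447 and 538 FPKM at ZT14 and at 84.0 and 81.0 at ZT2 (2.56, SE 0.15, adjusted p = 0.000446). Cpr92F was at 55.4 and 63.7 FPKM at ZT14 and at 8.33 and 9.26 at ZT2 (2.69, SE 0.15). Cpr76Bd was at 41.9 and 52.3 FPKM at ZT14 and at 8.17 and 9.27 at ZT2 (2.36, SE 0.14). The same direction was seen at low levels, in Cpr47Ea (12.3 and 15.1 FPKM at ZT14, 1.78 and 1.47 at ZT2) and Lcp1, a larval cuticle protein (6.65 and 9.66 at ZT14, 1.17 and 0.452 at ZT2). All 5 were robust.

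Of the 4 cuticle genes called lower, 2 were robust, both of the CPR family. Cpr49Ac (2R 12386666–12390057) was nearly absent at night, with 0.626 and 0.695 FPKM at ZT14, against 14.3 and 19.8 at ZT2 (-3.90, SE 0.33, adjusted p = 0.00144). Cpr66D (3L 8640439–8643584) was at 4.56 and 4.76 FPKM at ZT14 and at 20.6 and 17.3 at ZT2 (-1.91, SE 0.12, adjusted p = 0.000538). Cpr67B and Cpr72Ec were the other members called lower, calls that were lost without any 1 wild-type library.

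Other genes of the cuticle were examined in lists drawn up after the values were seen. The Vajk genes encode secreted cuticle proteins of a separate family. Of these, 3 of 4 were called higher (75.0%, against 3.91% called higher over all genes tested), and the 3 calls were robust. CG16884 (Vajk3) was at 657 and 917 FPKM at ZT14 and 111 and 103 at ZT2 (2.85, SE 0.17), CG16885 (Vajk2) at 710 and 905 at ZT14 and 126 and 122 at ZT2 (2.69, SE 0.15), and CG16886 (Vajk1) at 20.3 and 22.9 at ZT14 and 5.21 and 6.04 at ZT2 (1.85, SE 0.13).

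Of 24 genes tested for chitin synthesis, modification or binding, 9 were higher and none lower at ZT14 in the limma fit. The share called was 37.5%, against 6.63% of all genes tested, and 5 of the 9 calls were robust. kkv (krotzkopf verkehrt), the chitin synthase of the epidermis, was at 25.4 and 29.8 FPKM at ZT14 and at 10.5 and 10.7 at ZT2 (1.34, SE 0.19, adjusted p = 0.00944, lost without either wild-type ZT2 library or wild-type ZT14 replicate 2). CG13183 (rebuf, reb) and CG13188 (expansion, exp), both needed for chitin deposition in embryonic tubes, were at 10.04 and 11.6 FPKM and 18.5 and 21.5 FPKM at ZT14, against 3.18 and 2.70 and 7.75 and 7.10 at ZT2. The chitin-binding proteins Gasp (256 and 317 FPKM at ZT14, 107 and 103 at ZT2) and Peritrophin-A (35.9 and 46.2 at ZT14, 14.4 and 12.8 at ZT2) rose as well, as did the chitinase Cht6 (5.94 and 5.42 at ZT14, 2.05 and 1.92 at ZT2). Synthesis, binding and breakdown of chitin were thus all represented among the higher calls.

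Hardening and colouring of the cuticle gave calls in both directions, 7 higher and 3 lower of 23 genes tested (43.5%, against 6.63% of all genes tested), with 1 to 5 higher and none lower when 1 wild-type library was left out. Mco1, a multicopper oxidase counted in this list, was robustly higher, at 9.43 and 11.1 FPKM at ZT14 and 3.86 and 3.82 at ZT2 (1.30, SE 0.14, adjusted p = 0.00393). Whether Mco1 has a part in hardening or colouring was not tested. Punch (Pu), whose enzyme makes the first step to the tetrahydrobiopterin that dopamine synthesis needs, was at 1373 and 1764 FPKM at ZT14 and 757 and 760 at ZT2 (1.04, SE 0.17, adjusted p = 0.0169). yellow-e (55.4 and 66.2 FPKM at ZT14, 21.7 and 18.3 at ZT2) and amd, a relative of dopa decarboxylase (10.3 and 16.8 at ZT14, 4.74 and 3.93 at ZT2), were higher too. Lower were ebony (e), which joins beta-alanine to dopamine and histamine, at 21.2 and 25.9 FPKM at ZT14 and 55.4 and 50.3 at ZT2, and tan (t), which splits that bond, at 168 and 150 at ZT14 and 298 and 344 at ZT2. ebony and tan, which act in opposite directions, thus fell together, by 1.16 and by 1.01 on the log2 scale. Apart from Mco1 these calls were lost without at least 1 wild-type library. Duox, a dual oxidase known to crosslink cuticle in the wing, was robustly higher at 8.999 and 10.1 FPKM at ZT14 and 3.62 and 3.26 at ZT2 (1.35, SE 0.14, adjusted p = 0.00335).

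**Figure D3:**
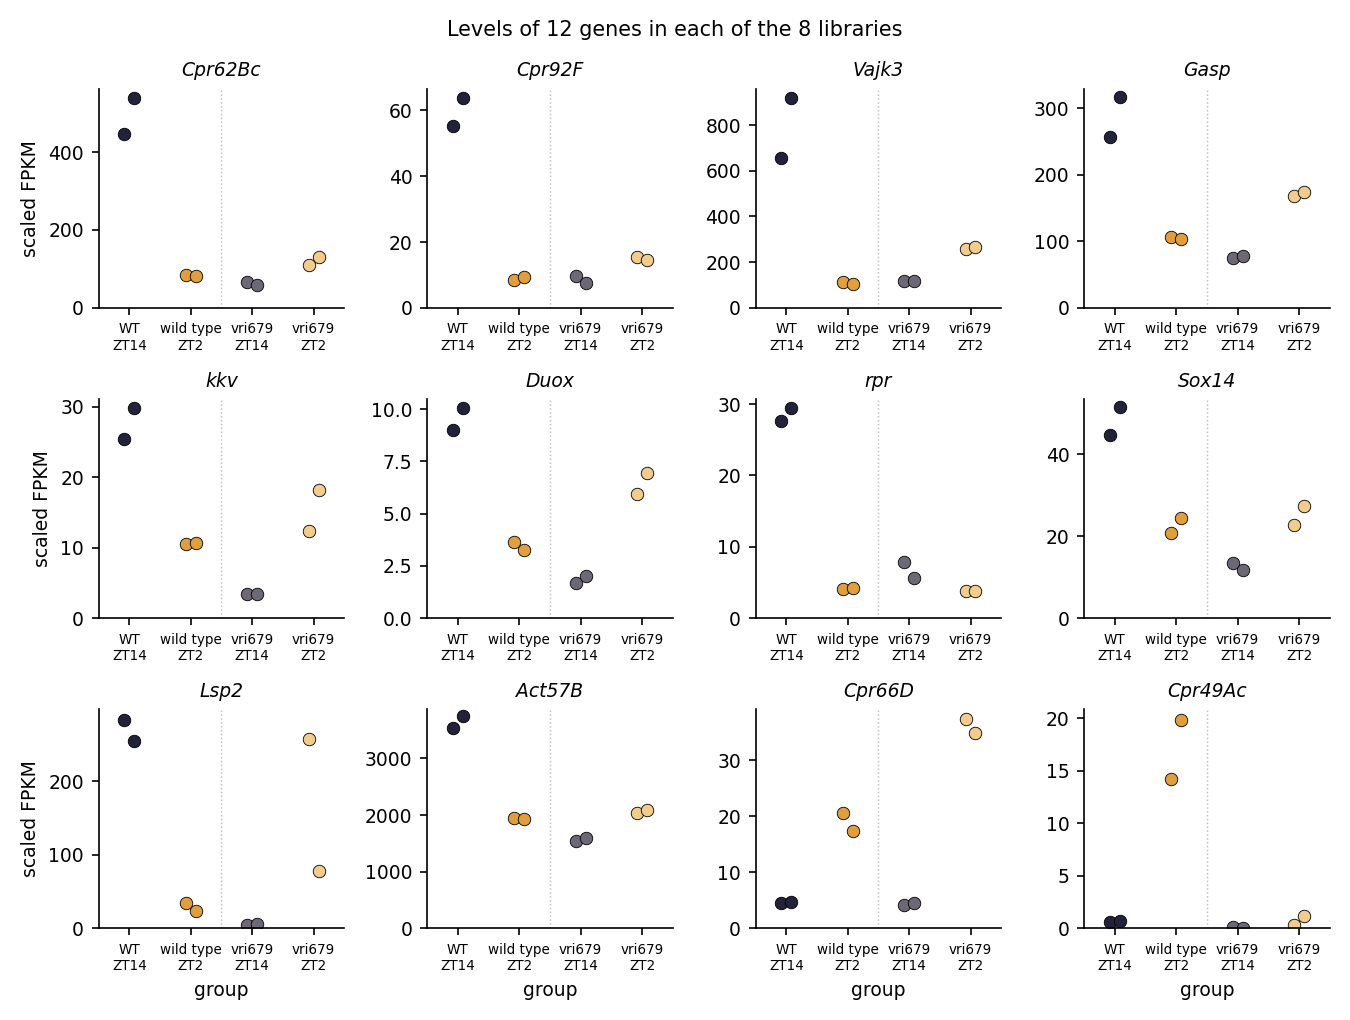
Scaled FPKM of 12 genes in each library, in the order wild-type (WT) ZT14, wild-type ZT2, vri679 ZT14 and vri679 ZT2, with axes that start at 0 and 2 points per group. The wild-type ZT14 libraries lie apart above the other groups for the cuticle, chitin and apoptosis genes shown, whereas Cpr66D and Cpr49Ac are lower at ZT14 than at ZT2 in wild type.

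Of the inducers of apoptosis, reaper and head involution defective were higher at night. reaper (rpr, 3L 18397535–18398435), whose small protein removes the inhibitors of caspases, was at 27.7 and 29.4 FPKM at ZT14 and 4.00 and 4.22 at ZT2 (2.65, SE 0.16, adjusted p = 0.000446). head involution defective (hid, listed as W, 3L 18167745–18185641), which acts beside it, was at 20.4 and 24.0 FPKM at ZT14 and 5.82 and 4.50 at ZT2 (2.01, SE 0.17, adjusted p = 0.0014). Both calls were robust. The list of apoptosis genes was drawn up after values were seen. In it 4 of 16 tested were higher and none lower by limma (25.0%, against 6.63% of all genes tested). Another was Sox14, an ecdysone-induced transcription factor that promotes cell death and pruning, at 44.7 and 51.5 FPKM at ZT14 and 20.9 and 24.3 at ZT2 (1.07, SE 0.15, adjusted p = 0.0103, lost without 3 of the wild-type libraries).

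Fat body and storage genes held some of the largest differences, and not in 1 direction. The larval serum protein Lsp2, an amino acid store, was at 284 and 255 FPKM at ZT14 and at 34.4 and 23.4 at ZT2 (3.22, SE 0.53, adjusted p = 0.0195). Fbp1, the receptor of a larval serum protein, was at 2.36 and 4.14 FPKM at ZT14 and 0.369 and 0.247 at ZT2 (2.18, SE 0.26, adjusted p = 0.00497), and Fbp2 at 2.22 and 6.34 at ZT14 and 0.441 and 0.196 at ZT2 (2.42, SE 0.40, adjusted p = 0.0169). Of these, Fbp1 was robust, and Fbp2 was also lost with the wild-type libraries alone. The lipid carrier gene Apoltp was lower, at 8.95 and 6.43 FPKM at ZT14 and 17.4 and 15.6 at ZT2 (-1.07, SE 0.17, adjusted p = 0.0146). In all 3 of 16 fat body genes tested were higher and 1 was lower (25.0%, against 6.63% of all genes tested). The list median was -0.04 and ran between -0.17 and 0.09 when 1 wild-type library was left out.

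Metabolic enzymes with a night rise included tobi, an alpha-glucosidase regulated by diet, at 22.5 and 29.0 FPKM at ZT14 and 2.35 and 1.76 at ZT2 (3.36, SE 0.52, adjusted p = 0.0164, lost without any 1 wild-type library). v(2)k05816 (FASN2), a fatty acid synthase, was at 7.22 and 7.73 FPKM at ZT14 and 1.36 and 1.22 at ZT2 (2.15, SE 0.15, adjusted p = 0.000756), a robust call. Prat2, the first enzyme of purine synthesis, was lower, at 34.9 and 26.7 FPKM at ZT14 and 84.98 and 74.0 at ZT2 (-1.36, SE 0.22, adjusted p = 0.0158). No gene of glycolysis (13 tested) or of the respiratory chain (60 tested) was called by limma, where 1 and 1 had an unadjusted p under 0.05. limma-voom, a fit on read equivalents, also called none.

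Of 17 muscle genes tested 3 were called higher and none lower (17.6%, against 6.63% of all genes tested), and the list median was 0.55. Act57B, an actin of larval and adult muscle, was at 3536 and 3754 FPKM at ZT14 and 1951 and 1928 at ZT2 (0.91, SE 0.14, adjusted p = 0.0142), and the myosin light chain gene Mlc1 at 1571 and 1781 at ZT14 and 984 and 990 at ZT2 (0.76, SE 0.16, adjusted p = 0.0343). Neither call was robust. With the wild-type libraries alone 9 of the 17 were higher and 1 lower, where 7.85% of all genes were higher and 7.63% lower. Zasp67, a protein of the muscle Z-disc family that was not on the list, rose robustly to 13.7 and 17.04 FPKM at ZT14, against 0.678 and 1.14 at ZT2 (3.51, SE 0.22, adjusted p = 0.000446). Neuron markers gave no call by limma (0 of 16, none at an unadjusted p under 0.05, none by limma-voom) and had a median of 0.03. Of 15 glia markers 1, ebony, was called (6.67%, near the background of 6.63%).

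Of 33 neuropeptide genes tested 3 were called higher and 8 lower at night (33.3%, against 6.63% of all genes tested), with a list median of -0.28. Dsk (drosulfakinin) was at 72.2 and 66.6 FPKM at ZT14 and 130 and 115.1 at ZT2 (-0.81, SE 0.12, adjusted p = 0.0116), NPF (neuropeptide F) at 29.8 and 31.0 at ZT14 and 50.5 and 52.4 at ZT2 (-0.75, SE 0.10, adjusted p = 0.00886), and Capa at 51.7 and 50.4 at ZT14 and 85.3 and 97.1 at ZT2 (-0.83, SE 0.12, adjusted p = 0.0103). Pdf, the signal of the ventral clock neurons, was at 52.9 and 56.2 FPKM at ZT14 and 79.7 and 82.7 at ZT2 (-0.57, SE 0.12, adjusted p = 0.0399). Mip, Trissin and Ms were lower as well.

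The insulin-like peptides of the brain split. Ilp2 was lower at night, at 108 and 100.1 FPKM at ZT14 and 161 and 152 at ZT2 (-0.58, SE 0.11, adjusted p = 0.0267), and Ilp5 higher, at 58.2 and 66.1 at ZT14 and 28.3 and 31.2 at ZT2 (1.05, SE 0.15, adjusted p = 0.0108). The other higher calls were SIFa (84.1 and 88.8 FPKM at ZT14, 53.5 and 58.1 at ZT2) and Nplp3, the most abundant member at 8336 and 9190 at ZT14 and 3423 and 3107 at ZT2. No neuropeptide call was robust: without 1 wild-type library the counts were 0 higher and 0 lower in 3 of the fits and 1 and 1 without wild-type ZT14 replicate 1, while the wild-type libraries alone gave 4 higher and 15 lower.

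In the eye, the list of 29 photoreceptor genes tested had a median of 0.001. Of these, 3 were lower at ZT14 and none higher by limma (10.3%, against 2.72% called lower over all genes tested). They were the ocellar rhodopsin Rh2 (172 and 166 FPKM at ZT14, 331 and 318 at ZT2) and the kinase inaC and scaffold inaD of the phototransduction complex (264 and 269 against 497 and 456 FPKM, and 323 and 311 against 539 and 579 FPKM, each at ZT14 against ZT2). The major rhodopsin ninaE did not pass, at 12658 and 10280 FPKM at ZT14 and 15742 and 17019 at ZT2 (-0.52, SE 0.20, adjusted p = 0.211). Of 7 genes for uptake and synthesis of the visual chromophore 2 were called higher and none lower (28.6%, against 6.63% of all genes tested). These were ninaB, at 54.8 and 55.5 FPKM at ZT14 and 38.8 and 36.4 at ZT2, and rdhB, at 236 and 246 at ZT14 and 164 and 139 at ZT2. Among 24 eye pigment genes tested, in a list drawn up after values were seen, 5 were called higher (st, cd, pr, ltd and Pu) and 1 lower. That was 25.0%, against 6.63% of all genes tested. The lower one was vermilion (v), the tryptophan oxygenase that opens brown eye pigment synthesis, at 9.37 and 6.76 FPKM at ZT14 and 30.4 and 25.0 at ZT2 (-1.73, SE 0.32, adjusted p = 0.0261). None of the calls in these 3 lists was robust.

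**Figure D4:**
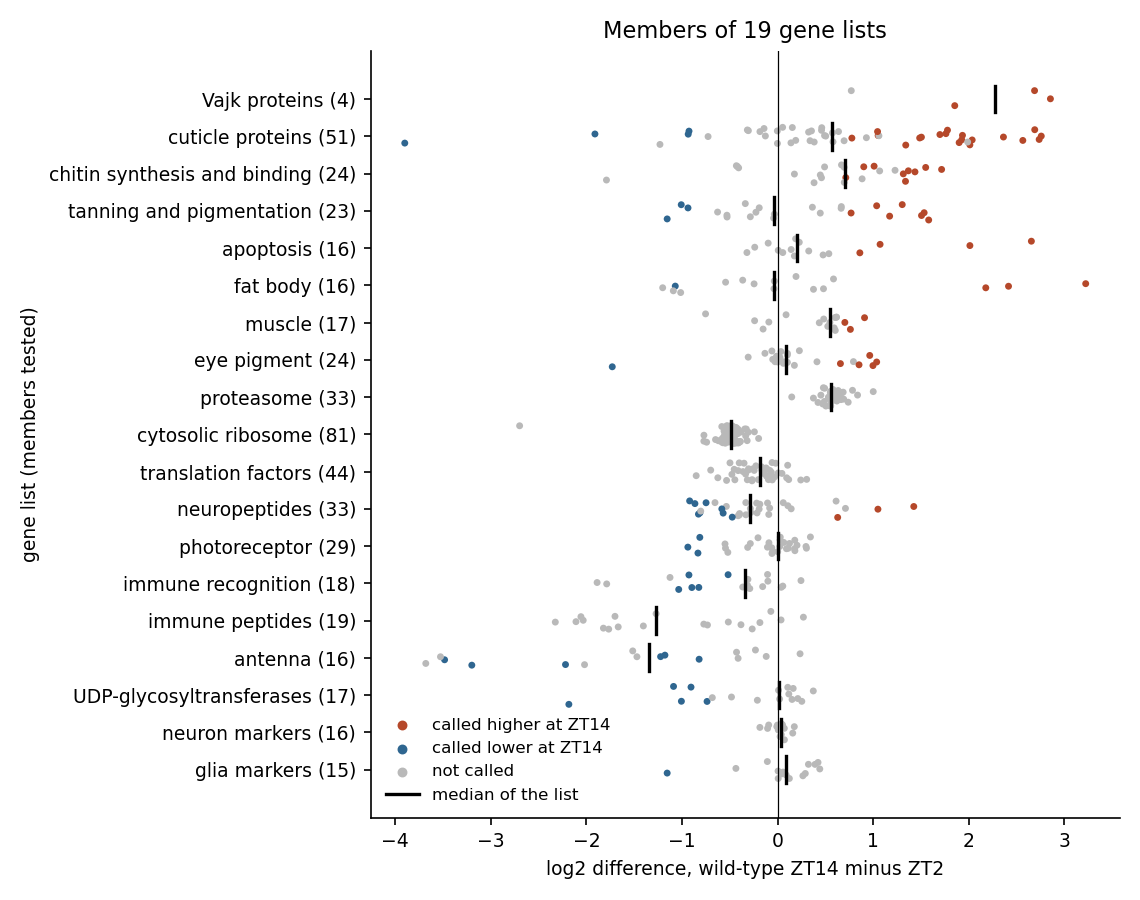
Each point is the wild-type log2 difference, ZT14 minus ZT2, of 1 gene tested in 1 of 19 lists, with the number tested in brackets and the list median as a bar. Points of cuticle, chitin and Vajk genes reach far to the right, the cytosolic ribosome and proteasome lists lie as narrow groups on either side of 0, and neuron and glia markers lie around 0.

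A different pattern, small in each gene and the same in nearly every member, appeared in the machinery that makes and breaks down protein. In 80 of 81 cytosolic ribosomal protein genes tested, both ZT14 libraries lay below both ZT2 libraries, against 30.9% of all genes, and the median difference was -0.49 (-0.29 with quantile normalization). Summed FPKM of the list was 64389 and 60740 at ZT14 and 89348 and 87462 at ZT2. limma called none in the fit of all 8 libraries (20 had an unadjusted p under 0.05, and limma-voom called none), but 69 of 81 were lower with the wild-type libraries alone, where 7.63% of all genes were lower, and 35 without the vri679 ZT14 group. RpL31 was at 564 and 537 FPKM at ZT14 and 782 and 1130 at ZT2 (-0.77, SE 0.24, adjusted p = 0.133).

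RpL32 (3R 30045229–30046161), often used as a reference gene in fly RT-qPCR under the name rp49, stood apart from the other ribosomal genes. It was at 148 and 88.4 FPKM at ZT14 and at 763 and 729 at ZT2 (-2.70, SE 0.84, adjusted p = 0.146). The spread behind that SE includes the vri679 libraries, which stood at 962 and 515 FPKM at ZT14 and at 551 and 90.4 at ZT2. With the wild-type libraries alone RpL32 was lower at ZT14 (adjusted p = 0.0122, limma).

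All 33 proteasome subunit genes had a positive difference, with a median of 0.56, and in 32 both ZT14 libraries lay above both ZT2 libraries, against 32.1% of all genes. limma called none of them (24 had an unadjusted p under 0.05, and limma-voom called 2). Their summed level was 4184 and 5609 FPKM at ZT14 and 3183 and 3192 at ZT2, so wild-type ZT14 replicate 2 lay well above replicate 1, and the list median was 0.34 without replicate 2 and 0.79 without replicate 1. Mitochondrial ribosomal protein genes, 73 in number, had a median of 0.09, and limma called none (1 had an unadjusted p under 0.05, and limma-voom called none). Of 26 heat shock genes tested 1 was called (3.85%, against 6.63% of all genes tested). It was Hsp83, the fly Hsp90, lower at 171 and 165 FPKM at ZT14 and 334 and 312 at ZT2 (-0.94, SE 0.11, adjusted p = 0.00502).

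Among 18 immune recognition and signalling genes 5 were lower at ZT14 and none higher (27.8%, against 2.72% called lower over all genes tested). The count was 0 without any 1 wild-type library and 1 without either vri679 ZT2 library. Among the 5 were the peptidoglycan receptors PGRP-LF (2.20 and 2.08 FPKM at ZT14, 4.29 and 4.06 at ZT2) and PGRP-SD (23.4 and 21.8 at ZT14, 38.2 and 47.2 at ZT2). TotX, a Turandot stress peptide, was at 6.11 and 4.40 FPKM at ZT14 and 12.8 and 14.4 at ZT2 (-1.31, SE 0.23, adjusted p = 0.0199, not a robust call). The antimicrobial peptide genes had a median of -1.27, yet none of 19 was called by limma or limma-voom, and none had an unadjusted p under 0.05. That median was -0.42 without wild-type ZT2 replicate 2 and -2.24 without wild-type ZT2 replicate 1. In 13 of the 19 both ZT14 libraries lay below both ZT2 libraries, against 30.9% of all genes tested. With the wild-type libraries alone 1 of the 19 was called lower, where 7.63% of all genes were lower. DptB (Diptericin B) shows the spread, at 38.5 and 60.1 FPKM at ZT14 and 186 and 319 at ZT2 in wild type, and at 7.35 and 291 in the vri679 ZT2 libraries.

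Enzymes that modify small molecules gave calls in both directions. In 71 cytochrome P450 genes tested 5 were higher and 5 lower, in 31 glutathione transferases 3 were higher and 4 lower, and in 17 UDP-glycosyltransferases 5 were lower and none higher, where 3.91% of all genes tested were higher and 2.72% lower. Without 1 wild-type library the P450 counts were 0 to 2 higher and 0 to 1 lower, the transferase counts 0 to 1 higher and 1 to 3 lower, and the UDP-glycosyltransferase counts 1 to 2 lower. GstE8 was the robust one of the transferases, at 2.39 and 2.59 FPKM at ZT14 and 6.21 and 6.24 at ZT2 (-1.17, SE 0.13, adjusted p = 0.00396). Cyp4c3 was at 11.8 and 13.5 FPKM at ZT14 and 6.27 and 5.34 at ZT2 (1.06, SE 0.13, adjusted p = 0.00617), and Cyp312a1 at 0.229 and 0.495 at ZT14 and 1.99 and 1.77 at ZT2 (-1.48, SE 0.18, adjusted p = 0.00533).

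Of 16 antennal genes tested, in a list drawn up after values were seen, 6 were lower at ZT14 and none higher, with a median of -1.35. The share called was 37.5%, against 6.63% of all genes tested. Without 1 wild-type library 0 to 2 were lower. A gene could pass the filter on low values through its ZT2 libraries alone, as a5 did. The median was smaller in size with no filter on low values (5 lower). It was -1.77 over the 12 members kept at a minimum of 5 FPKM (4 lower). Os-C was at 0.0526 and 0.148 FPKM at ZT14 and 8.48 and 4.49 at ZT2 (-3.48, SE 0.59, adjusted p = 0.0227), Obp83b at 0.542 and 0.268 at ZT14 and 8.85 and 6.72 at ZT2 (-3.20, SE 0.66, adjusted p = 0.045), and a5 was listed at 0 in both ZT14 libraries and at 2.69 and 1.20 at ZT2. The olfactory co-receptor Orco did not pass, at 3.10 and 2.42 FPKM at ZT14 and 4.06 and 3.58 at ZT2 (-0.41, SE 0.21, adjusted p = 0.365), nor did Obp28a at 36.9 and 34.3 at ZT14 and 32.8 and 27.8 at ZT2 (0.23, SE 0.25, adjusted p = 0.727). In the vri679 ZT2 libraries Os-C, Obp83b and a5 stood above both wild-type ZT2 libraries, with Os-C at 118 and 88.5 FPKM. The part that attached antennae had in these values was not tested, and the calls of Os-C and Obp83b were lost without any 1 wild-type library, with a pseudocount of 0.1 and with limma-voom.

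Among odorant-binding proteins 2 of 30 tested were higher and 4 lower, where 3.91% of all genes tested were higher and 2.72% lower. The odorant-binding and antennal lists share members, such as Obp83b, so their counts are not separate results. Obp56f was higher, at 7.57 and 12.99 FPKM at ZT14 and 2.53 and 2.14 at ZT2 (1.88, SE 0.24, adjusted p = 0.00632), and Obp56h lower, at 21.0 and 14.2 at ZT14 and 54.4 and 49.7 at ZT2 (-1.56, SE 0.20, adjusted p = 0.00677). Neither of these calls was robust.

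Several of the largest differences belonged to genes known by an identifier alone. CG14118 (3L 12892658–12894758) was at 17 and 22.1 FPKM at ZT14 and 0.190 and 0.245 at ZT2 (4.79, SE 0.16, adjusted p = 6.58e-05), and CG13044 (3L 16302490–16303178) at 152 and 211 at ZT14 and 14.0 and 10.5 at ZT2 (3.83, SE 0.23, adjusted p = 0.000446). Both were robust. CG8483 (7.35 and 9.17 FPKM at ZT14, 127 and 174 at ZT2) and CG34217 (5.97 and 9.59 at ZT14, 158 and 90.2 at ZT2) were lower by 4.10 and 3.89 log2 units, calls that were lost without the vri679 ZT14 group and without any 1 wild-type library. At very high levels, CG7203 rose to 5117 and 5771 FPKM at ZT14, against 1768 and 1637 at ZT2, and CG8343 fell to 1057 and 718 at ZT14, against 2089 and 1876 at ZT2.

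The 2 largest differences of all belong to 1 locus and are uncertain. CG44194 was at 29.7 and 31.7 FPKM at ZT14 and 0.0186 and 0.0729 at ZT2 (5.84, SE 0.13), and CG17327 was listed at 0 in both ZT14 libraries and at 37.7 and 41.3 at ZT2. The tables give both symbols transcripts over the same interval (3R 12996876–12997726), so reads can be assigned to either. Summed over both symbols the locus was at 29.7 and 31.7 FPKM at ZT14 and 37.7 and 41.4 at ZT2. Among 240 tested genes that share an interval with another symbol 15 were called, near the 6.63% called over all genes tested. This was the 1 pair called in opposite directions.

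The same time comparison in vri679 heads uses other libraries and a mutant clock. There 9.97% of the genes tested were called between ZT14 and ZT2, and the time difference itself differed between genotypes (genotype by time) for 835 genes, 8.25%. Of the 82 robust genes that were higher at ZT14 in wild type, 13 were called higher and 35 lower at ZT14 in vri679, and the interaction was called for 72. Of the 40 robust genes that were lower at ZT14 in wild type, 23 were called lower and 1 higher in vri679, and the interaction was called for 17. The wild-type values chose these genes, so these counts are a description.

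Clock and clock-output genes were among those with the same direction in both genotypes. tim stood at 227 and 289 FPKM at ZT14 and 24.2 and 27.6 at ZT2 in vri679 (3.28, SE 0.18, adjusted p = 0.000406), and Ubpy at 132 and 148 at ZT14 and 25.4 and 33.6 at ZT2 (2.24, SE 0.16, adjusted p = 0.00101). cyr (X 8121280–8135713), a robust call in wild type with 10.8 and 9.63 FPKM at ZT14 and 1.07 and 0.888 at ZT2 (2.86, SE 0.12), was at 12.9 and 13.3 at ZT14 and 1.11 and 1.12 at ZT2 in vri679 (3.07, SE 0.12). Clk, cry, Inos, gl, Jhe, fon and Cpr66D also passed in the same direction in vri679. takeout and Pdfr kept their direction there but did not pass in the limma fit (-0.90, SE 0.25, adjusted p = 0.068, and 0.33, SE 0.13, adjusted p = 0.135). For Cdc6, a DNA replication licensing factor, the fall at ZT14 was deeper in vri679 (-3.67) than in wild type (-1.61), and for per the rise was larger in vri679 (3.75) than in wild type (2.07, interaction adjusted p = 0.0183).

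The cuticle genes behaved otherwise. In vri679 none of 51 was called higher at ZT14 by limma and 18 were called lower, with a list median of -0.64, against 19 higher and 4 lower in wild type. Cpr62Bc was at 67.0 and 59.5 FPKM at ZT14 and 110 and 130 at ZT2 in vri679 (-0.91, SE 0.15, adjusted p = 0.0148), and the difference between the genotypes in the time difference was -3.48 (adjusted p = 0.000828). Lsp2 was at 4.47 and 5.90 FPKM at ZT14 and 258 and 78.0 at ZT2 in vri679 (-4.66, SE 0.53, adjusted p = 0.0062), the reverse of wild type. The ribosomal list had a median of 0.45 in vri679 against -0.49 in wild type, and the proteasome list -0.42 against 0.56.

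**Figure D5:**
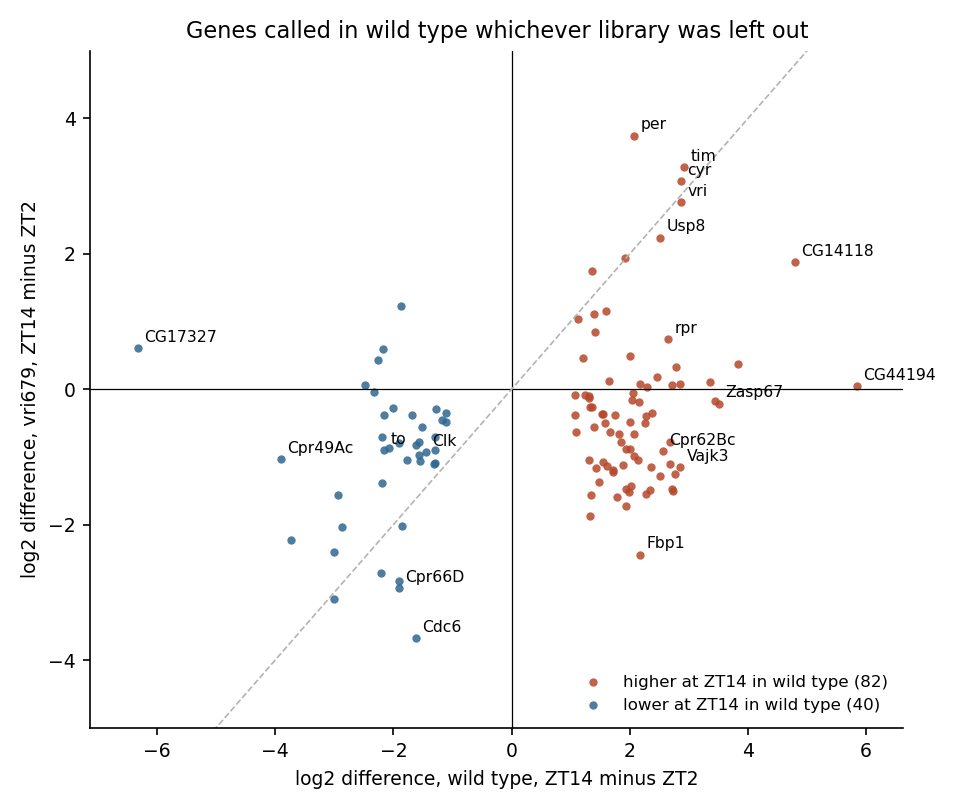
Each point is 1 of the 122 genes whose wild-type call held whichever library was left out, with the wild-type log2 difference, ZT14 minus ZT2, on the horizontal axis, the vri679 difference on the vertical axis and equality as a dashed line. tim, vri, cyr, Usp8 and Cpr66D have the same sign in both genotypes, while Cpr62Bc, Vajk3 and Fbp1 lie below 0 in vri679.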

How the data were processed

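Poly(A) RNA of fly heads was sequenced as 75 nt single-end reads from a stranded kit, per the labels' protocols. The authors deposited, for each library, FPKM and per-base coverage (signal) of 35411 transcripts under 16727 gene symbols, per the file headers. STAR 2.6.1d, StringTie and the genome build dm6 are named in the submitters' processing notes, and coordinates here are on dm6. No strand setting is given in the sources used here.

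From these tables FPKM was summed per symbol and rescaled (median of ratios, 12078 genes, factors 0.968 to 1.038). The 10122 genes tested had 1 FPKM or more in 2 or more libraries. limma 3.58.1 in R 4.3.3 (trend and robust options, statmod 1.5.0) fitted the 4 groups on log2(scaled FPKM + 0.5). Contrasts were ZT14 minus ZT2 in wild type and in vri679, and their difference. Benjamini-Hochberg adjustment ran over the 10122 genes, and 0.05 was the threshold. Group values are given per library, with n = 2 and no mean. Coverage gave read depth and, as read equivalents, a limma-voom alternative. A floor of 3 reads on 3 kb was 0.0153 to 0.0203 FPKM, which covers counting error only. The fit was tested on simulated data with known changes. All groups had the same spread per gene there, so the wider spread of vri679 ZT14 was not covered.

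The comparison, the gene lists and the genes named were chosen with earlier results of these data known, so lists are described by counts and medians and have no test of their own. The lists for chitin, tanning, Vajk, apoptosis, eye pigment and antenna were drawn up after seeing the data. Of 1730 list entries 7 matched no symbol. The rule for genes to name took the clock genes, the 12 largest called differences in each direction, the 5 called genes with the highest levels in each direction, and up to 4 called members per list. The text names most of these, left out others with an identifier only or for length, and adds genes chosen after their values were seen (such as Yp1, roX1, RpL31, RpL32, Duox, Sox14, Orco, Obp28a, Inos, gl, fon, Cdc6 and further cuticle, chitin and neuropeptide genes). The reported fit did not pair libraries by replicate number. Deviations of same-numbered wild-type ZT14 and ZT2 libraries correlated at -0.143. Over the 6 pairs of groups the correlations ran between -0.143 and 0.27 (wild-type ZT2 with vri679 ZT2). Such correlations over all genes cannot tell whether libraries of the same number shared a culture or collection. Promoter sequences were not analysed here.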

Additional observations from a re-analysis of the deposited data

Results flagged for a closer look

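Genes named above are listed here where the time difference itself differed between the genotypes, tested as an interaction in the same limma fit (adjusted p under 0.05 over all genes tested). Each value is the log2 difference, ZT14 minus ZT2, of vri679 less that of wild type. For storage and metabolic genes it was -7.88 for Lsp2, -5.61 for Fbp2, -5.32 for tobi and -4.62 for Fbp1, with -2.34 for v(2)k05816.

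Among cuticle proteins it was -4.24 for Cpr47Ea, -4.02 for Lcp1, -3.51 for Cpr76Bd, -3.48 for Cpr62Bc, -3.47 for Cpr92F, -2.57 for Acp1 and -1.03 for Cpr66D, but 2.87 for Cpr49Ac. The Vajk genes had -4.01 (CG16884), -3.78 (CG16885) and -2.63 (CG16886). In chitin and tanning genes it was -3.32 for kkv, -3.26 for yellow-e, -2.93 for CG13183, -2.90 for Duox, -2.62 for Peritrophin-A, -2.60 for Gasp, -2.36 for Cht6, -2.05 for amd, -1.63 for CG13188, -1.43 for Mco1 and -1.05 for Pu.

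For genes of cell death and muscle the values were -2.04 (Sox14), -1.92 (rpr), -1.52 (hid), -3.72 (Zasp67), -1.30 (Act57B) and -1.09 (Mlc1). Neuropeptide genes split, with -2.43 for Ilp5 and -1.86 for Nplp3 and with 0.90 for Ilp2, 1.08 for Ms, 1.16 for Mip, 1.21 for NPF, 1.38 for Capa, 1.49 for Pdf, 1.68 for Dsk and 1.85 for Trissin. In the eye and antenna they were -0.77 for st, -1.41 for cd, -0.90 for rdhB, 1.07 for Rh2, -3.41 for Obp28a, -3.27 for a5, -2.27 for Orco, -2.13 for Obp56f and 1.38 for Obp56h. The remaining values were 1.67 for per, -2.06 for Cdc6, -3.45 for CG13044, -2.92 for CG14118, -2.38 for CG7203, 2.18 for CG8343, and -5.79 for CG44194 and 6.93 for CG17327, whose shared interval makes both uncertain.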

How the results depend on the processing

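The count of calls (671, of which 396 were higher and 275 lower at ZT14) moved by more than 1.5 times when the libraries in the fit changed. With the wild-type libraries alone 1567 genes were called (795 higher, 772 lower), and without the vri679 ZT14 group 1433 (767 higher, 666 lower). Leaving out 1 library gave 148 to 1442 calls, with 102 to 771 higher and 45 to 671 lower. Such a fit assumes that the lone library varies like the other groups. The fewest calls remained without wild-type ZT2 replicate 1 (148). The share of higher calls was 59.0%, and 50.7% with the wild-type libraries alone. The other filters, pseudocounts, scalings, eBayes without trend and robust options and limma-voom kept the count within 1.5 times, and equal totals moved the median of all genes by 0.045. With the replicate number as a block 733 genes were called (383 higher, 350 lower). A crossed pairing of the numbers, chosen after seeing the data, gave 701 (402 higher, 299 lower). Of the 98 named calls, the block ended those of CG2650, Pdf, inaD and Ms, the crossed pairing inaD, CG8343 and Ms, no filter on low values Pdf, inaD, ninaB, CG8343 and Ms, equal totals cwo, t, inaC and Ms, quantile normalization Act57B, inaC, Obp83b and Ms, a pseudocount of 0.1 inaD, Os-C and Obp83b, limma-voom Os-C and Obp83b, the wild-type libraries alone Fbp2, and leaving out the vri679 ZT14 group CG8483 and CG34217. With the block, 3 of 4 female-biased genes (Yp1, Yp2 and Yp3, which the fat body list also holds) were lower at ZT14, against 0 without it, and 4 of 16 fat body genes, against 1. Yp1 was higher in replicate 1 than in replicate 2 in each of the 4 groups. No named call changed direction in any setting, which was fixed in advance for the fits that only left out libraries. On a 3 kb transcript 3 reads lie far below 0.5 FPKM, but the floor is higher on shorter transcripts, such as those of Os-C and Obp83b. The part of depth in the calls of such genes was not tested. Having 2 libraries a group limits every named call.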
